A study of Mus musculus with 2 samples.

Results

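Transcripts of 10 integrin subunit genes (Itgam, Itgb2, Itgal, Itgax, Itgav, Itgb5, Itga6, Itgb1, Itga4 and Itga9) were followed in myeloid cells sorted from mouse brain. They were listed by name, as subunits known in myeloid cells, with no threshold on a measured value, and are 10 of the 32285 genes counted. Each was summed in microglia, in neutrophils and in all other cells of each library, and its level is given as CPM (UMIs of the gene per 1e+06 UMIs of the same cells). UMIs are random tags on captured transcripts that let amplified copies be counted once.

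Integrins are surface receptors made of an alpha and a beta subunit, and they tie the actin cytoskeleton to the matrix or to ligands on other cells through talin and kindlin. The beta2 integrins are found on leukocytes: alphaM (Itgam, CD11b) with beta2 (Itgb2, CD18) forms complement receptor 3, alphaL (Itgal, CD11a) with beta2 forms LFA-1, which binds ICAMs, and alphaX (Itgax, CD11c) with beta2 forms complement receptor 4. The beta1 integrins bind laminin (with Itga6), VCAM-1 and fibronectin (with Itga4) or tenascin and osteopontin (with Itga9), and alphaV (Itgav) with beta5 (Itgb5) binds vitronectin and takes part in the uptake of apoptotic cells.

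The brains came from male littermates aged 23 weeks, 6 Disc1 WT/WT and 6 Disc1 LI/LI, and each genotype was pooled into 1 library. In Disc1 LI/LI mice both copies of Disc1 are the locus impairment allele. Actinomycin D, a blocker of transcription, was present during dissociation of both pools, and a sort for surface CD11b and low CD45 followed. CD11b is the protein of Itgam, so every sorted cell had been selected for the product of 1 of the 10 genes. Because a genotype is a single library, differences between genotypes and between libraries cannot be told apart, no test was made, and all 95% intervals cover counting error only.

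The Disc1 WT/WT library held 33601957 UMIs in 7038 barcodes and the Disc1 LI/LI library 47731571 UMIs in 7834 barcodes, of which 7032 and 7817 passed the filter (200 genes or more, mitochondrial UMIs at 10% or less). The libraries shared 12 barcodes. Disc1 itself was counted with 642 UMIs in the first library and 22 in the second. In microglia alone these were 597 and 18 UMIs, or 20.3 and 2.20 CPM. Microglia, defined by at least 0.5% of UMIs from 6 microglia genes and under 1% from S100a8 and S100a9, numbered 6180 for Disc1 WT/WT (87.9%, with an exact binomial interval of 87.1 to 88.6) and 1950 for Disc1 LI/LI (24.9%, 24.0 to 25.9). Neutrophils, with at least 3% of UMIs from S100a8 and S100a9, were 116 (1.65%) and 3622 (46.3%), and the other cells 736 (10.5%) and 2245 (28.7%). All 5 further microglia genes, such as Cx3cr1 and Csf1r, lay above neutrophils in the microglia of both libraries, and all 9 further neutrophil genes, such as Retnlg and Camp, lay above microglia in the neutrophils. Microglia with a marker share between 0.5% and 1%, near the limit, numbered 1852 and 768. The median UMIs per cell, Disc1 WT/WT first, were 4271 and 3787.5 in microglia, 4844.5 and 4194 in neutrophils, and 3640.5 and 6403 in other cells.

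The genes of the alpha chains that pair with beta2 lie on chromosome 7 (mm10): Itgal at chr7:127296260-127335138, Itgam at chr7:128062640-128118491 and Itgax at chr7:128129547-128150657, the last starting 11056 bases after the end of Itgam. Itgb2 lies at chr10:77530252-77565708, Itgb1 at chr8:128685654-128733200, Itgb5 at chr16:33829665-33949338, Itgav at chr2:83724397-83806916, Itga6 at chr2:71745616-71858416, Itga4 at chr2:79255426-79333123 and Itga9 at chr9:118606690-118901003. All are annotated on the plus strand. Itga6 shares its strand and interval with Gm13663 and Gm13662, which were counted as separate genes, so its reads could be split between them. The sequences upstream of Itgam, Itgb1 and Itgb5 are shown because these 3 genes carry the results in microglia. They are the 250 bases before the start of each gene in RefSeq (GRCm38.p6, plus strand, chr7:128062390-128062639, chr8:128685404-128685653 and chr16:33829415-33829664). Capitals mark GAGGAA or its reverse complement TTCCTC, letters typical of sites of the myeloid transcription factor PU.1.
Itgam: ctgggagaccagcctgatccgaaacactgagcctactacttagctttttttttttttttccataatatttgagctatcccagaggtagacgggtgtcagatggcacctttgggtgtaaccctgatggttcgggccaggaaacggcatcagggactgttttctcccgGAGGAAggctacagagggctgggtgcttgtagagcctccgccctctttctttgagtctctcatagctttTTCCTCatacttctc
Itgb1: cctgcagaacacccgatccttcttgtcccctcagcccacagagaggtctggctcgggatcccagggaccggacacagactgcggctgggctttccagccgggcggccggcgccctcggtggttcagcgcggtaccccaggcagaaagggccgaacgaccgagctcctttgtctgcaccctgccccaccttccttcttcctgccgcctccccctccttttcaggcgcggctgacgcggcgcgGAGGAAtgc
Itgb5: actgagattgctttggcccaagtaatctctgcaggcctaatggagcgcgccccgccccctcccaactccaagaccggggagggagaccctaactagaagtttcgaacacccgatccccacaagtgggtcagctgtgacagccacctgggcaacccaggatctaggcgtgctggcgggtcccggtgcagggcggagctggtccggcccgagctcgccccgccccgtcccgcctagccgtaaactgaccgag
The letters occur in Itgam with first bases 84 and 15 bases before the start, and in Itgb1 9 bases before it, and not in the window of Itgb5. Of the 10 genes, 7 were matched in the RefSeq promoter table by symbol, and 3 of these 7 held the letters on either strand, the third being Itgav. The same letters occur in 23.3% of all 32851 promoter windows of this length, and a match is a description of the letters and not of binding.

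In microglia, Itgam, Itgb5, Itgb1, Itga6, Itgb2, Itgav and Itga9 were counted in both libraries with at least 293 UMIs each, while Itgax, Itga4 and Itgal rested on few. Itgam, whose product the sort selected, had a level of 757 CPM in Disc1 WT/WT microglia (95% exact Poisson interval 747 to 767) and of 514 CPM in Disc1 LI/LI microglia (498 to 529). Itgb5, which pairs with alphaV, had 762 (752 to 772) and 840 (820 to 860). Itgb1, the common beta1 chain, had 424 (417 to 432) and 226 (216 to 237). The intervals of the libraries do not overlap for any of these 3 genes, with Itgam and Itgb1 lower and Itgb5 higher in Disc1 LI/LI. At such counts (1849 UMIs or more) the intervals separate on small differences, as for Itgb5 at 1.10-fold. How many of all genes have separate intervals was not counted.

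Itga6, which binds laminin with beta1, had 233 CPM in Disc1 WT/WT microglia (228 to 239) and 172 in Disc1 LI/LI microglia (163 to 182). Itgb2, the partner of alphaM, alphaL and alphaX, had 181 (176 to 186) and 210 (200 to 220). Itgav had 117 (113 to 121) and 85.7 (79.4 to 92.3), and Itga9 had 48.8 (46.3 to 51.4) and 35.9 (31.9 to 40.2). Both alpha chains and Itga6 were thus lower in Disc1 LI/LI, while Itgb2 was higher. The 3 sparse genes rested on few counts. Itgax had 143 UMIs (4.87 CPM, 4.10 to 5.73) and 28 UMIs (3.43, 2.28 to 4.95), Itga4 had 170 (5.78, 4.95 to 6.72) and 58 (7.10, 5.39 to 9.18), and Itgal had 37 (1.26, 0.886 to 1.74) and 29 (3.55, 2.38 to 5.10). Of these, the intervals of Itgal alone do not overlap. Much of these counts lay in cells near the microglia limit: among the 4328 and 1182 microglia with at least 1% of UMIs from the microglia genes, Itga4 had 38 UMIs (1.83 CPM, 1.30 to 2.52) and 6 UMIs (1.25, 0.459 to 2.72), and Itgax 60 (2.90, 2.21 to 3.73) and 12 (2.50, 1.29 to 4.37).

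**Figure D1:**
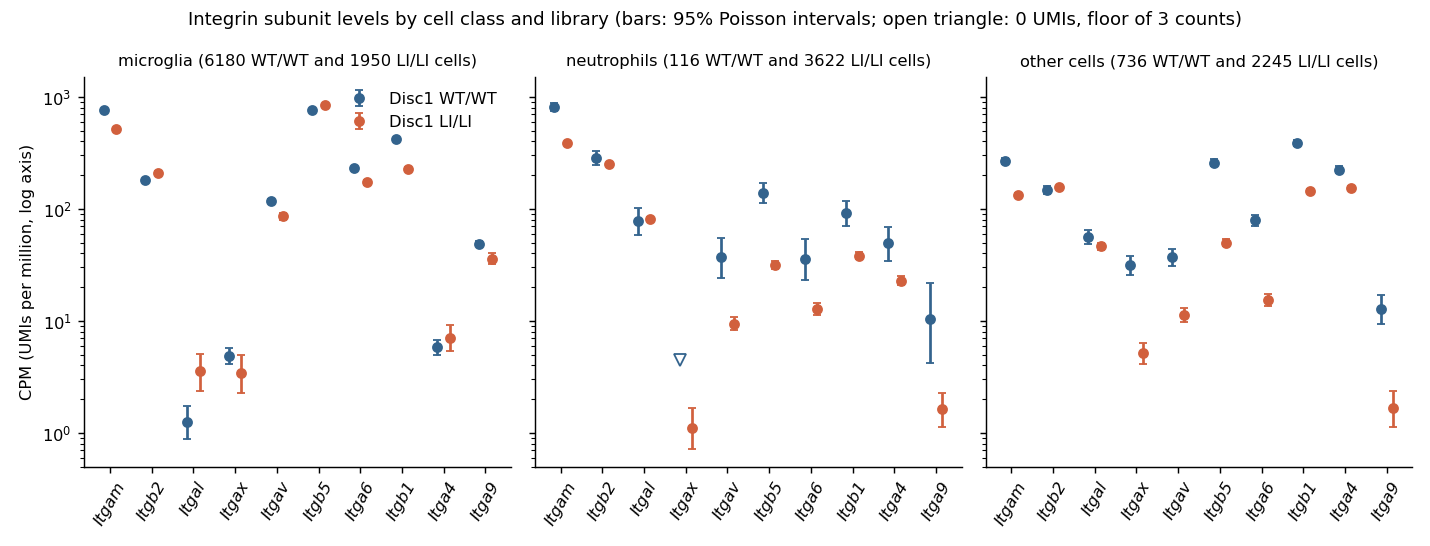
CPM (vertical log axis) of the 10 integrin subunit genes in microglia, neutrophils and other cells of the Disc1 WT/WT (blue) and Disc1 LI/LI (orange) libraries, with 95% exact Poisson intervals. In microglia Itgb1 stands at 424 in the Disc1 WT/WT library and 226 in the other, and in neutrophils Itgal stands at 77.9 and 81.1, against 1.26 and 3.55 in microglia. The open triangle marks Itgax in Disc1 WT/WT neutrophils, where 0 UMIs were found, at the floor of 3 counts.

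The share of cells with a UMI depends on depth, and is given as counted and at equal depth. Of Disc1 WT/WT microglia, 92.8% held an Itgb5 UMI (92.1 to 93.4), as did 92.7% of Disc1 LI/LI microglia (91.5 to 93.8), and for Itgam these shares were 90.2% and 79.5%. Itgb1 was found in 78.6% (77.6 to 79.6) and 55.0% (52.7 to 57.2). When each cell was thinned to 1000 UMIs, which left out 104 shallower Disc1 WT/WT and 17 Disc1 LI/LI microglia, Itgb5 was found in 53.0% and 55.0%, Itgam in 50.4% and 37.8%, and Itgb1 in 33.5% (32.4 to 34.7) and 20.0% (18.3 to 21.9). The gap between the libraries in Itgam and Itgb1 was therefore present at equal depth per cell. Thinned shares of Itgb2 were 15.9% and 18.9%, of Itga6 20.0% and 15.6%, of Itgav 10.2% and 7.97%, and of Itga9 4.92% and 3.05%. Itgax, Itga4 and Itgal were found in at most 0.414% of thinned microglia in either library, and Itgal in 3 cells of each.

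The genotype comparison asks whether impairment of the Disc1 locus goes with other integrin levels in microglia. The log2 ratio (Disc1 LI/LI divided by Disc1 WT/WT) was -0.91 for Itgb1 (95% counting interval -0.98 to -0.84), a 1.87-fold lower level, and 1.495 for Itgal (0.74 to 2.24), a 2.82-fold higher level from few UMIs. These were the 2 of 10 genes past 1.5-fold. With a microglia share of at least 0.25% there were 5, Itgam, Itgax and Itga4 in addition, beside 19.1% of all genes lower and 4.18% higher. With cells thinned to 1000 UMIs there were 4, Itgax and Itga9 in addition. Itgal and Itgax then had under 50 UMIs, and 7 of the 10 genes had at least 50. Of all 8911 genes with at least 50 UMIs when thinned, 19.1% were lower and 2.36% higher. Among all 11087 genes with at least 50 UMIs over both libraries in microglia, 18.1% were lower and 2.94% higher past 1.5-fold, so that the count of 1 lower and 1 higher among 10 is near the share of all genes. Itgb1 lay below all but 4.77% of those genes. Itgam, at -0.56, lay just inside the 1.5-fold limit, and Itgb2 (0.21) and Itgb5 (0.14) were higher in Disc1 LI/LI against a median of -0.19 over all genes.

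The ratios of the other alpha chains were close to each other, at -0.45 for Itgav, -0.44 for Itga6, -0.45 for Itga9 and -0.51 for Itgax, the last with an interval that includes 0. Itga4 was at 0.30 (-0.16 to 0.73), which turned to -0.55 with a microglia share of at least 1%, -0.40 as the mean over cells and -0.36 with the top 5% of UMIs left out, so no direction was read for it. Gene length moved with the ratio over all genes: the 2771 longest genes, spanning at least 51.5 kb, had a median of -0.44, with 33.2% lower past 1.5-fold, and the next 2771, from 22.4 to 51.4 kb, a median of -0.28, with 19.2% lower. Itgam, Itgav, Itgb5, Itga6, Itga4 and Itga9 belong to the longest genes, and Itgb1, Itgb2 and Itgal to the next. The ratios of Itgav, Itga6 and Itga9 were thus at the median of genes of their length, Itgb5 lay above it, and Itgb1 lay below the median of the genes of its length. The part of gene length in these ratios was not tested. Scaling by edgeR's TMM factors in place of the total added 0.13 to every ratio in microglia, 0.54 in neutrophils and 0.48 in other cells. In microglia it left Itgb1 at -0.77 and Itgam at -0.43, with the same 2 genes past 1.5-fold, while over all genes the lower share became 10.9% and the higher 4.50%.

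**Figure D2:**
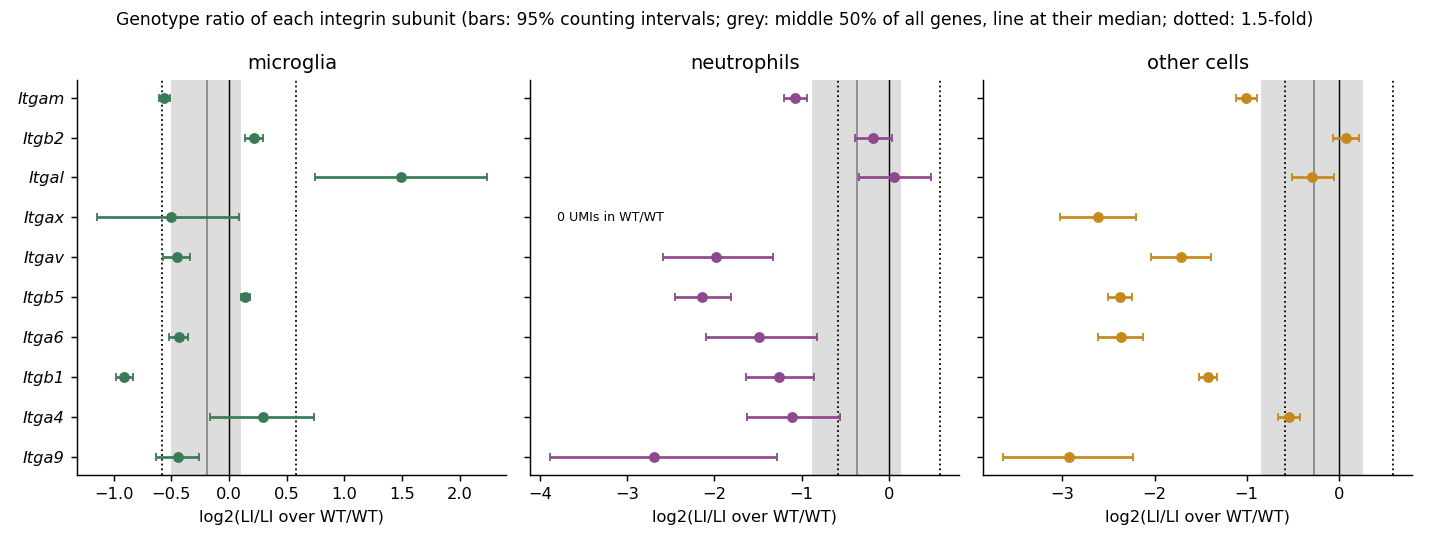
Log2 ratio between genotypes, Disc1 LI/LI as numerator (horizontal axis, with its own range in each panel) for the 10 integrin subunit genes in each cell class, with 95% counting intervals, the middle 50% of all genes in grey and 1.5-fold as dotted lines. In microglia Itgb1 (-0.91) lies left of the dotted line and Itgal (1.495) right of it. In neutrophils and other cells 7 genes lie left of it under scaling by the total, and 5 and 6 under TMM scaling, which adds 0.54 and 0.48.

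Itgal in Disc1 LI/LI microglia was found beside more neutrophil transcripts in the sum of the same cell class. The 5 neutrophil genes Retnlg, Ngp, Camp, Lcn2 and Ltf stood in microglia at 0.0114% to 0.0240% of their neutrophil level in Disc1 WT/WT and at 0.437% to 0.902% in Disc1 LI/LI. Itgal in microglia stood at 1.62% (1.03 to 2.51) and 4.37% (2.92 to 6.30) of its neutrophil level, above that range in both libraries. With at least 1% of UMIs from the microglia genes, Itgal had 3 UMIs in 4328 Disc1 WT/WT microglia (0.145 CPM, 0.0299 to 0.423) and 12 in 1182 Disc1 LI/LI microglia (2.50 CPM, 1.29 to 4.37), with intervals that do not overlap. Other cells carried Itgal too, at 56.5 and 46.3 CPM, and the range above covers neutrophil genes only. The part of transcripts of neutrophils or other cells in the Itgal ratio was not tested.

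Microglia and neutrophils differed in some subunits, while Itgam had the highest level of the alpha chains in both. In both libraries 5 of the 10 genes (Itgav, Itgb5, Itga6, Itgb1 and Itga9) were more than 2-fold higher in microglia than in neutrophils, and 2 (Itgal and Itga4) more than 2-fold higher in neutrophils. Over 9844 genes, 48.2% were higher in microglia and 6.97% in neutrophils by the same rule, and the count of 5 among 10 is near the first of these shares. Itgal, the LFA-1 chain, had 77.9 CPM in Disc1 WT/WT neutrophils (58.2 to 102) and 81.1 in Disc1 LI/LI neutrophils (77.4 to 85.0), which is 61.9-fold and 22.9-fold above microglia. Itga4 had 49.5 (34.0 to 69.5) and 22.8 (20.9 to 24.95), or 8.55-fold and 3.22-fold above microglia. For both genes the interval of the ratio lay beyond 2-fold in each library. The folds of both genes depended on the microglia limit. Against microglia with a share of at least 1%, that of Itgal was 538, from 3 microglia UMIs, and 32.4. That of Itga4 was then 26.97 and 18.3. With a share of at least 0.25% the log2 ratio of Itga4, microglia over neutrophils, was -0.53 in Disc1 LI/LI, within 2-fold.

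Itgam and Itgb2, the chains of complement receptor 3, were shared. Itgam had 814 CPM in Disc1 WT/WT neutrophils (747 to 885) and 387 in Disc1 LI/LI neutrophils (379 to 396). Against microglia of the same library its log2 ratio, microglia over neutrophils, was -0.10 for Disc1 WT/WT (-0.23 to 0.02) and 0.41 for Disc1 LI/LI (0.35 to 0.46), and the second turned to -0.91 under TMM scaling and -0.99 under DESeq2 scaling. Itgb2 had 286 (247 to 330) and 252 (245 to 259), higher than in microglia in both libraries by 1.59-fold and 1.20-fold. TMM scaling shifts microglia over neutrophils down by 0.89 in the first library and 1.32 in the second on the log2 scale, and then 4 genes were higher in microglia, without Itgav, and 3 in neutrophils, with Itgb2, beside 15.5% and 14.8% of all genes. Itgax, which was at 0 of 667173 UMIs in Disc1 WT/WT neutrophils (allowing up to 4.50 CPM at 3 counts), had 1.11 CPM in Disc1 LI/LI neutrophils, so no fold between the libraries was computed.

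Neutrophils held few transcripts of the subunits that were higher in microglia. The levels of Itgb5 and Itga9 moved between the libraries with those of other microglia genes in neutrophils, and those of Itgb1, Itgav and Itga6 less so. Itgb5 had 139 CPM in Disc1 WT/WT neutrophils and 31.7 in Disc1 LI/LI neutrophils, Itgb1 had 91.4 and 38.2, Itgav 37.5 and 9.45, Itga6 36.0 and 12.8, and Itga9 10.5 and 1.62. Set against microglia of the same library, 6 genes known from microglia (C1qa, C1qb, C1qc, Cx3cr1, Csf1r and Sparc) stood in neutrophils at 19.4% to 21.6% of their microglia level in Disc1 WT/WT and 3.47% to 4.96% in Disc1 LI/LI. Itgb5 stood at 18.3% (14.8 to 22.4) and 3.77% (3.48 to 4.08), and Itga9 at 21.5% (8.62 to 44.4) and 4.52% (3.09 to 6.44). The intervals of both genes overlap the range of the 6 genes in each library, so no expression by neutrophils was read from them. Itga6 stood at 15.4% (9.88 to 23.0) and 7.42% (6.50 to 8.45), Itgav at 32.0% (20.7 to 47.3) and 11.0% (9.39 to 12.9), and Itgb1 at 21.6% (16.5 to 27.7) and 16.9% (15.5 to 18.4). These 3 lay above the range of the 6 genes in Disc1 LI/LI, and overlapped it in Disc1 WT/WT.

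**Figure D3:**
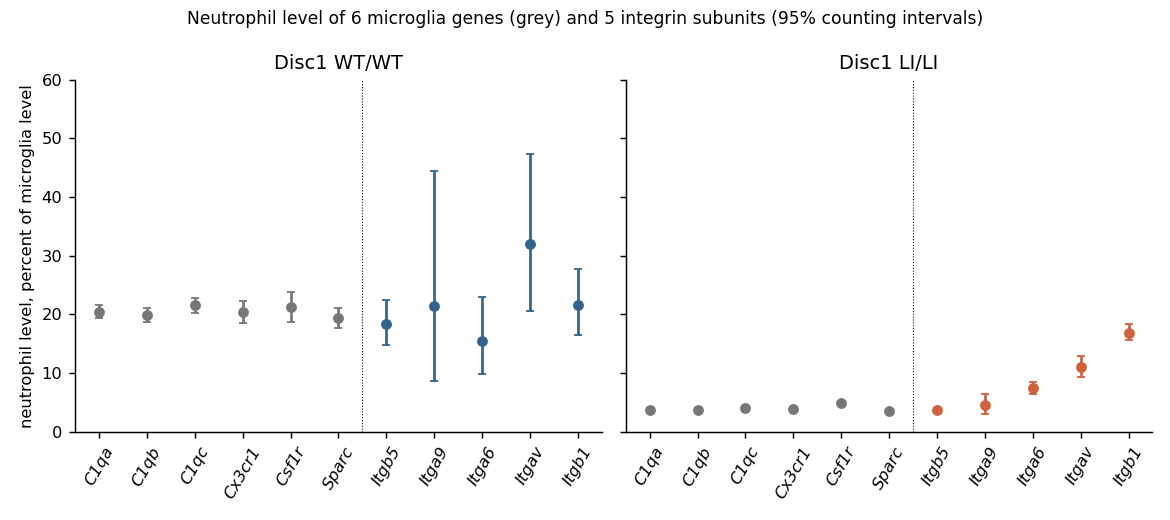
Level in neutrophils as a percent of the level in microglia of the same library (vertical axis) for 6 microglia genes (grey) and 5 integrin subunit genes (coloured), with 95% counting intervals. Itgb5 (18.3% and 3.77%) and Itga9 (21.5% and 4.52%) lie with the grey points in both libraries, while Itgb1 (16.9%), Itgav (11.0%) and Itga6 (7.42%) lie above them in Disc1 LI/LI.

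Among neutrophils with under 0.05% of UMIs from the 6 microglia genes, 82 of 116 in Disc1 WT/WT and 3375 of 3622 in Disc1 LI/LI, Itgb5 was at 13.4 and 5.58 CPM, Itga9 at 0 and 0.203, and Itga6 at 0 and 6.90. Itgb1 was at 21.4 and 31.5, Itgav at 13.4 and 6.70, Itga4 at 67.0 and 23.2, and Itgal at 110 and 81.9. Itgam was at 734 and 380, against 814 and 387 in all neutrophils, and Itgb2 at 321 and 251, against 286 and 252. C1qa still stood at 129 and 85.4 in these cells. The Disc1 WT/WT levels of the rarer genes rest on few UMIs in these 82 cells, and a level of 0 there is not an absence. This selection of neutrophils was added after the data were seen.

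Between genotypes, 7 of the 10 genes were lower past 1.5-fold in Disc1 LI/LI neutrophils (Itgam, Itgav, Itgb5, Itga6, Itgb1, Itga4 and Itga9) and 0 higher. Of the 8 with at least 50 UMIs over both libraries there, which leaves out Itga9 (7 and 35 UMIs) and Itgax, 6 were lower, where 37.8% of the 8769 genes with as many UMIs were lower and 11.7% higher. Under TMM scaling 5 were lower, without Itgam and Itga4 but with Itga9, and Itgal was higher, and over all genes 15.6% were lower and 28.9% higher. Among neutrophils with under 0.05% of UMIs from microglia genes, 4 were lower past 1.5-fold (Itgam, Itgav, Itgb5 and Itga4), beside 23.9% lower and 19.7% higher of 8187 genes in the same cells, and the log2 ratio of Itgb1 turned from -1.26 to 0.56. Of the genes that neutrophils themselves carry, Itgam was 2.10-fold lower in Disc1 LI/LI (log2 ratio -1.07), Itga4 2.17-fold lower (-1.11), and Itgal at a log2 ratio of 0.06 (-0.34 to 0.48). Itgb2 was at -0.19 (-0.39 to 0.03), which turned to 0.36 under TMM scaling. The Disc1 WT/WT values rest on 116 cells, and on 82 in the selection with few microglia UMIs. In that selection Itgb1, Itgav and Itgb5 have few Disc1 WT/WT UMIs, so no direction was read for them.

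The integrin makeup of neutrophils also went with their granule genes. Cells with at least 1% of UMIs from Camp, Ngp and Ltf, genes of granule proteins, were 50 Disc1 WT/WT and 1631 Disc1 LI/LI neutrophils. Itgam was higher in these cells than in the remaining neutrophils, at 922 against 623 CPM in Disc1 WT/WT and 420 against 319 in Disc1 LI/LI. Itgal was lower in them, at 49.2 against 129 and at 59.7 against 125, with log2 ratios of -1.39 (-2.26 to -0.54) and -1.07 (-1.20 to -0.93). Itga4 was lower as well, at 25.8 against 91.4 and 20.1 against 28.5. The intervals of all 3 differences leave out 0 in each library. Median depth was 7155 against 2742.5 UMIs per cell in Disc1 WT/WT and 7055 against 2765 in Disc1 LI/LI. These levels are shares of UMIs. As shares of cells, Itgal was found in 36.0% against 37.9% and 38.1% against 35.0%. Itga4 was found in 18.0% against 16.7% and 12.2% against 6.78%. Itgb5, from which no expression by neutrophils was read, had lower levels as well (log2 ratios -0.73 and -1.15). How many of all genes differ in this way was not counted.

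**Figure D4:**
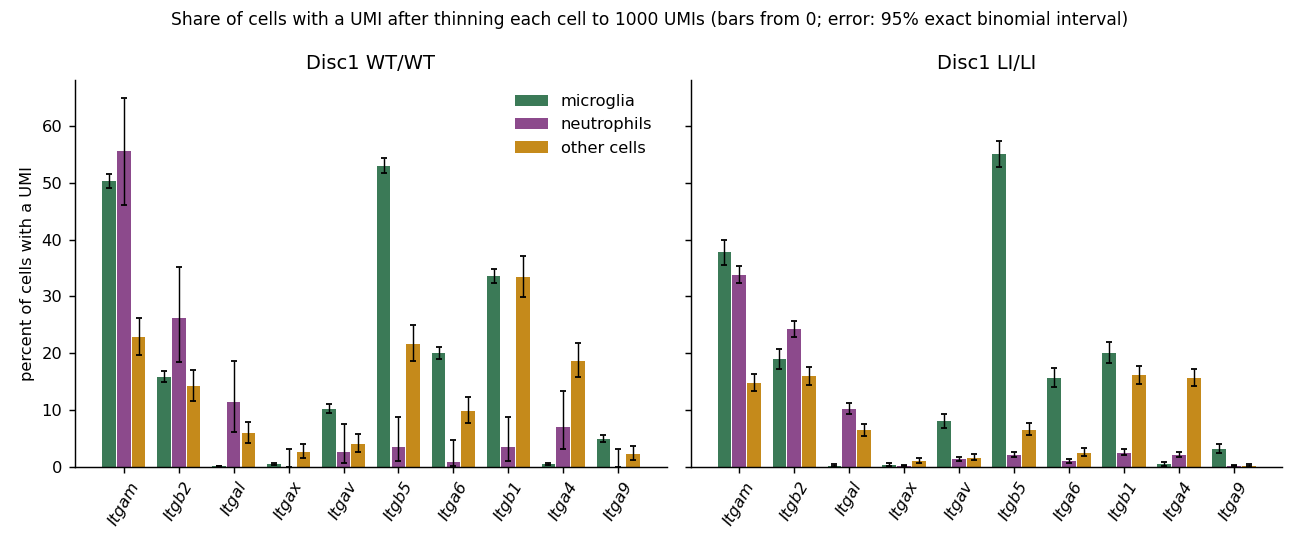
Percent of cells with a UMI (vertical axis) for the 10 integrin subunit genes after each cell was thinned to 1000 UMIs, in microglia (green), neutrophils (purple) and other cells (ochre), with 95% exact binomial intervals. Itgb5 was found in 53.0% and 55.0% of microglia and in 3.48% and 2.05% of neutrophils, and Itgal in 0.0494% and 0.155% of microglia and 11.3% and 10.2% of neutrophils.

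In thinned neutrophils Itgam was found in 55.7% (46.1 to 64.9) of Disc1 WT/WT and 33.8% (32.3 to 35.4) of Disc1 LI/LI cells, and without thinning in 87.9% and 75.7%. Itgal was found in 11.3% (6.16 to 18.6) and 10.2% (9.26 to 11.3), against 0.0494% and 0.155% of thinned microglia, which hardly carry it. Itgb5 was found in 3.48% (0.956 to 8.67) and 2.05% (1.61 to 2.56), and Itgax in 0 of 115 thinned Disc1 WT/WT neutrophils, where 3 counts would allow 2.61%. Within neutrophils of both libraries, Itgam and Itgb2 were found together in 62.9% and 56.1% of cells and Itgal and Itgb2 in 24.1% and 25.5%. In microglia Itgam and Itgb2 were found together in 49.1% and 45.6% of cells, Itgav and Itgb5 in 37.6% and 27.4%, and Itga6 and Itgb1 in 47.0% and 28.3%. Thinned, the last pair was found in 7.01% and 3.36% of microglia. Of microglia with an Itgav UMI, 94.7% and 95.4% also had an Itgb5 UMI, near the 92.8% and 92.7% of all microglia. A shared find depends on how often each gene is found alone. The share expected from the single genes was not computed, so no pairing was read from these values.

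The other cells were a mixture whose makeup differed between the libraries, and their summed levels differed with it. Cells were grouped by the share of UMIs from marker genes, with limits set after the data were seen and on those shares alone. In Disc1 WT/WT the largest groups carried border macrophage genes such as Mrc1 and Pf4 (212 cells), antigen presentation genes such as H2-Aa and Cd74 (140), or no list above its limit (217). In Disc1 LI/LI 1251 cells carried classical monocyte genes such as Ly6c2 and Ccr2, against 45 in Disc1 WT/WT. Many cells lay within 2-fold of a limit. With the wild-type library first, they numbered 190 and 313 for classical monocyte genes and 114 and 45 for border macrophage genes. They were 62 and 224 for antigen presentation genes, and 18 and 98 for nonclassical monocyte genes. For NK, T and B cell genes they were fewer than the cells of the group. The sizes and levels of the groups can therefore depend on the limits, and other limits were not tried. Among the other cells, 262 from Disc1 WT/WT brains and 185 from Disc1 LI/LI brains had a microglia share of 0.25% to 0.5%, just below the microglia limit. Over all other cells Itgb5 had 259 and 50.003 CPM, Itgb1 388 and 145, Itga4 224 and 154, Itgam 268 and 134, Itgal 56.5 and 46.3, and Itgax 31.4 and 5.13. Lower past 1.5-fold in Disc1 LI/LI were 7 genes (Itgam, Itgav, Itgb5, Itga6, Itgax, Itgb1 and Itga9) and higher 0, beside 35.6% and 13.3% of 10543 genes, and under TMM scaling 6 were lower, without Itgam, beside 18.2% and 32.4% of all genes. These ratios and the makeup cannot be told apart in the sum, so the levels are given by group, scaled by the total only.

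In cells with classical monocyte genes, the Itga4 level was 399 CPM for Disc1 WT/WT (340 to 466) and 188 for Disc1 LI/LI (180 to 196), Itgam 313 (260 to 372) and 170 (162 to 178), and Itgb1 218 (175 to 269) and 141 (134 to 148). Itgb2 had 191 (151 to 239) and 186 (178 to 194), and Itgal 62.0 (40.1 to 91.6) and 46.6 (42.6 to 51.0). Itga4, Itgam and Itgb1 were thus lower in Disc1 LI/LI with intervals that do not overlap, while those of Itgb2 and Itgal do. The share of all genes that were lower was not counted within any group. Over all other cells it was 35.6% past 1.5-fold, and TMM scaling added 0.48 there. The differences within groups were therefore not read as particular to these genes. In cells with antigen presentation genes, Itgb1 had 347 and 175, Itgam 214 and 114, and Itga4 156 and 179. Itgax, a classical dendritic cell marker, was at 64.4 (48.8 to 83.5) and 19.7 (13.1 to 28.5) in these cells. An Itgax UMI was found in 22.1% and 10.6% of them, against 1.84% and 1.23% of microglia, at median depths of 4665 and 6761.5 UMIs. Itgax was not particular to this group. It was at 96.3 (38.7 to 198) and 47.0 (23.4 to 84.0) in cells with NK cell genes. In cells with nonclassical monocyte genes it was at 58.6 (21.5 to 128) and 73.1 (37.8 to 128).

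Cells with nonclassical monocyte genes such as Ace and Treml4, 34 of the Disc1 WT/WT library and 63 of the Disc1 LI/LI library, had the most Itgal of all groups, at 1055 CPM (865 to 1273) and 706 (584 to 847), and were found with an Itgal UMI in 91.2% and 74.6% of cells. Their Itga4 was at 1309 (1096 to 1550) and 469 (370 to 586), and their Itgb2 at 488 and 676. Cells with border macrophage genes had Itgal at 9.26 (3.72 to 19.1) for Disc1 WT/WT and in 0 of the 47 Disc1 LI/LI cells, where 3 counts would allow 6.38% of cells. Their Itgb1 was at 406 (362 to 454) and 216 (155 to 293), and their Itgb5 at 274 (238 to 314) and 264 (196 to 347). In cells with T cell genes Itgb1 was at 612 (517 to 718) and 210 (170 to 256). Itgb1 was lower in Disc1 LI/LI in the groups with border macrophage, antigen presentation, classical monocyte, NK, T and B cell genes without overlap of the intervals except for B cell genes (165, 78.9 to 303, and 61.9, 44.6 to 83.7), and the interval of its ratio included 0 in the group with nonclassical monocyte genes (557 and 487). These differences, too, were not set against all genes of each group. The sort selected CD11b, and the T and B cell groups had Itgam at 112 and 103 and at 49.4 and 75.2.

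**Figure D5:**
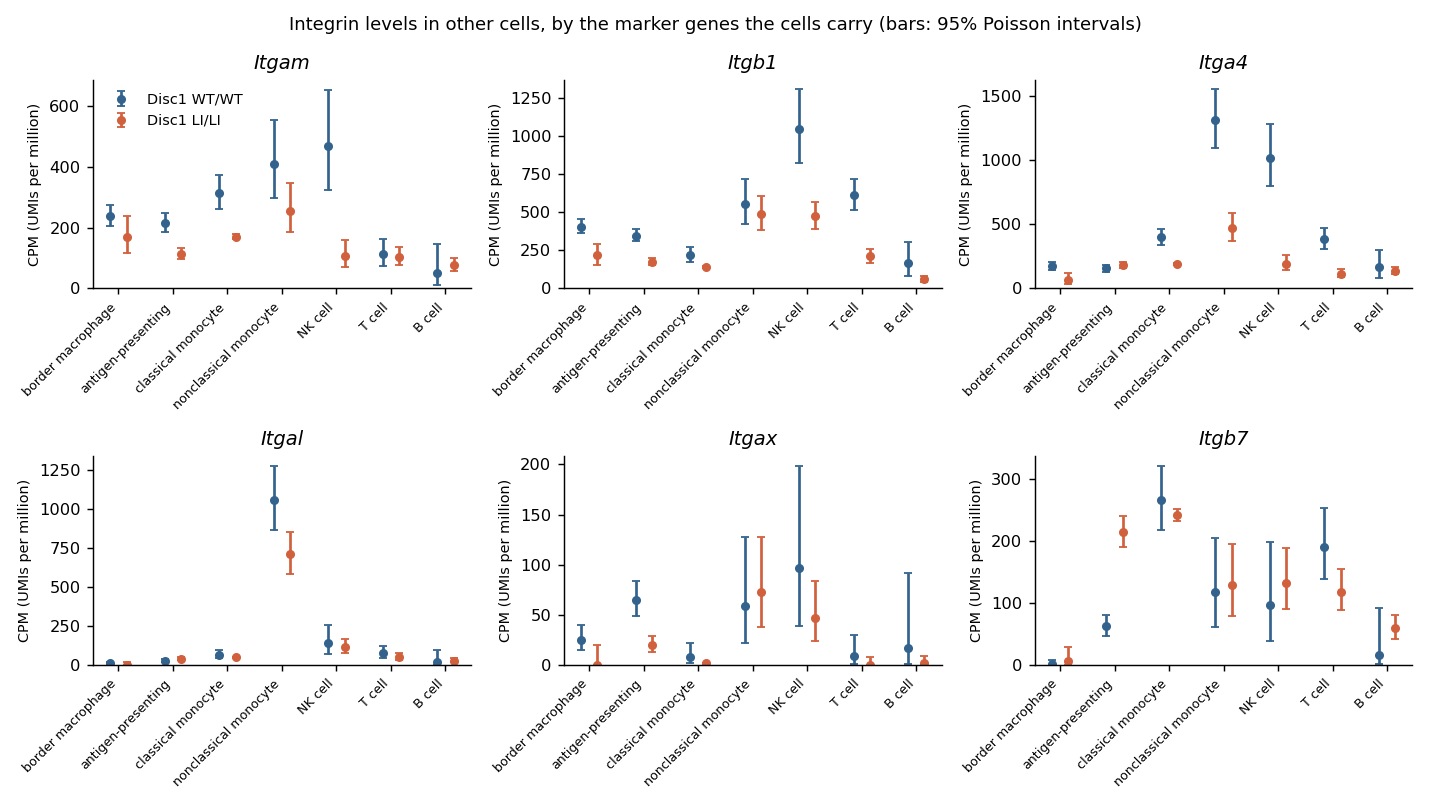
CPM (vertical axis, linear from 0, with its own range in each panel) of 6 integrin genes in groups of other cells, named by the marker genes they carry, in Disc1 WT/WT (blue) and Disc1 LI/LI (orange), with 95% exact Poisson intervals. Itgal peaks in cells with nonclassical monocyte genes (1055 and 706), and Itgb7 in cells with classical monocyte genes (265 and 241). Itgax stands at 64.4 and 19.7 in cells with antigen presentation genes, and at 96.3 and 47.0 in cells with NK cell genes.

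Of the 17 further integrin subunit genes counted, 2 reached 50 CPM in any class. Itgb7, which pairs with alpha4 in the gut homing receptor, was found in Disc1 WT/WT other cells at 70.4 (61.9 to 79.7) and in those of Disc1 LI/LI at 183 (176 to 189), and stood at 265 (218 to 321) and 241 (232 to 251) within cells with classical monocyte genes. Of the other cells with an Itga4 UMI, 29.7% and 67.0% also had Itgb7, and 82.3% and 67.3% had Itgb1. Among all other cells these shares were 14.4% and 56.0% for Itgb7, and 69.0% and 59.8% for Itgb1. Itgb2l, a relative of Itgb2, was found in neutrophils at 133 (107 to 164) and 143 (138 to 148). It was higher in neutrophils with the granule genes, at 176 against 58.2 and 189 against 49.6. The other 15 stayed below, at most 39.7 for Itga1, and Itgb6 had no UMI in any class.

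An Itgax UMI was found in 114 microglia of the Disc1 WT/WT library and 24 of the Disc1 LI/LI library. Of 16 genes listed for disease-associated microglia, the state in which Itgax is known as a marker, 11 had at least 50 UMIs in each library and 4 were higher past 1.5-fold in both: Cst7, a cysteine protease inhibitor, the tetraspanin Cd63, the growth factor Csf1 and the chemokine Ccl6. Over 8721 genes 1.05% were higher by this rule and 1.41% lower. Cst7 was at 93.7 CPM with and 10.7 without an Itgax UMI in Disc1 WT/WT, and at 34.0 and 17.0 among Disc1 LI/LI microglia, where it rests on 4 UMIs. The counting intervals of the Cst7 and Csf1 ratios include 0 in Disc1 LI/LI. Cd63 was at 1111 and 460, and at 747 and 475. Among Disc1 WT/WT microglia, Apoe was at 2419 and 754, Lpl at 93.7 and 8.45, and Spp1 at 394 and 1.29, the last with 154 of 294 UMIs in 1 of the 9 cells that held it. In Disc1 LI/LI microglia, Apoe was at 858 against 631 (1.36-fold, 1.11 to 1.66), while Lpl and Spp1 had 0 UMIs with and 34 and 24 UMIs without an Itgax UMI, which allows ratios of up to 7.84-fold and 11.4-fold. The difference between the libraries was not tested. These values changed with the microglia limit: with a microglia share of at least 1%, which left 51 and 12 microglia with an Itgax UMI, 0 of the 4 genes stayed past 1.5-fold in both libraries. Cst7 was then at 56.5 against 9.26 CPM in Disc1 WT/WT and had 0 UMIs in Disc1 LI/LI, and Cd63 was at 762 against 431 and at 414 against 449. Of the listed genes Apoe alone was past 1.5-fold in both by that gate, at 1512 against 309 and 320.1 against 176, beside 1.25% of 7544 genes. None of 7 homeostatic genes, P2ry12 and Tmem119 among them, passed 1.5-fold in both libraries, and 0 did in either. P2ry12, Tmem119, Gpr34, Siglech and Fcrls also define the microglia class, so the gate limited in advance how low they could be. With an Itgax UMI, the log2 ratio of P2ry12 was -0.45 (-0.51 to -0.39) in Disc1 WT/WT and -0.02 (-0.17 to 0.13) in Disc1 LI/LI. The median over the 7 genes was -0.17 and -0.15.

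All 4 measured antigen presentation genes were also higher past 1.5-fold in Disc1 WT/WT microglia with an Itgax UMI, beside 4.35% of all genes. Cd74 was at 1052 against 239 CPM. In Disc1 LI/LI the 4 were lower, beside 17.6% of all genes, with Cd74 at 136 against 420. Cd74 had 16 UMIs in those 24 cells, the others at most 5, and not every interval leaves out 0. With a microglia share of at least 1%, Cd74 was at 687 against 54.3, and had 2 UMIs in Disc1 LI/LI. No direction was read for Disc1 LI/LI. Of the other 9 integrin subunit genes, 8 had at least 50 UMIs in each library and Itga4 was higher past 1.5-fold in both, at 16.1 against 5.52 and 42.5 against 6.58, from 12 and 5 UMIs. With a microglia share of at least 1% these were 4 and 0 UMIs. Itgam was at 798 against 756 and 611 against 512. Microglia with an Itgax UMI were deeper, with a median of 5495.5 against 4258 UMIs in Disc1 WT/WT and 4682 against 3778 in Disc1 LI/LI, and the part of depth was not tested.

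Of 50 listed genes that act with integrins (activators, adaptors, kinases, ligands and partners), 42 were measured in microglia. There, 4 were lower and 7 higher past 1.5-fold in Disc1 LI/LI, beside 18.1% and 2.94% of all genes, and none of them reached a level of 50 CPM in either library. All 7 higher genes had a higher level in neutrophils than in microglia in both libraries, and they stood beside neutrophil genes at 0.437% to 0.902% of their neutrophil level in Disc1 LI/LI microglia against 0.0114% to 0.0240% in Disc1 WT/WT. The 7 genes themselves stood at 1.26% to 67.9% of their neutrophil level in Disc1 LI/LI and at 0.399% to 77.2% in Disc1 WT/WT. These percents lay above the range of the neutrophil genes, and some in Disc1 WT/WT rest on 1 neutrophil UMI. In microglia with under 0.3% of UMIs from S100a8 and S100a9, 7 were still higher past 1.5-fold, and 6 with a microglia share of at least 1%. The part of neutrophil transcripts in them was not tested. In neutrophils 35 were measured, and 9 were lower and 4 higher, beside 37.8% and 11.7% of all genes. Neither share of the list exceeded that of all genes, and its median log2 ratio was -0.25 against -0.36 over all genes. Among the genes past 1.5-fold, 7 reached 50 CPM in a library with an interval of the ratio that leaves out 0. The share of all genes that meet this rule was not counted. Talin (Tln1), which activates integrins by binding the beta chain, was at 556 CPM in neutrophils of Disc1 WT/WT and 335 in those of Disc1 LI/LI. Its recruiter RIAM (Apbb1ip) was at 366 and 199, and the adaptor Fyb at 252 and 153. The kinases Lyn (340 and 196), Syk (145 and 95.1) and Ptk2b (55.5 and 22.3), which act downstream of beta2 integrins, and Tgfb1 (77.9 and 35.8), whose latent form alphaV integrins activate, were also lower in Disc1 LI/LI. Of these 7, the log2 ratios ran from -1.32 to -0.61, on a scale that TMM raises by 0.54 in neutrophils. With that shift most of them lie within 1.5-fold, so the differences were not read as particular to these genes. The 7 genes stood beside microglia genes at 19.4% to 21.6% of their microglia level in Disc1 WT/WT neutrophils and 3.47% to 4.96% in those of Disc1 LI/LI. Microglia themselves had Lyn at 725 and 533 CPM, Apbb1ip at 644 and 551, Fyb at 614 and 557 and Tgfb1 at 247 and 209.9. Among neutrophils with under 0.05% of UMIs from the microglia genes, Fyb was at 161 and 139 CPM, with a log2 ratio of -0.21 (-0.58 to 0.18), and Tgfb1 at 29.5 and 30.8, with 0.06 (-0.79 to 1.07). The other 5 stayed lower in these cells, from -1.21 for Ptk2b to -0.64 for Lyn, with intervals that leave out 0. These ratios are scaled by the total, and 23.9% of 8187 genes were lower past 1.5-fold in the same cells.

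Over the 6 sums of class and library, the genes closest in pattern to each subunit, out of 4415 genes, were Rnase4 for Itgb5 (Pearson's r of 0.9997 at log2 of CPM plus 1), Matr3 for Itgb1 (0.999), Ogt for Itgam (0.997), Plbd1 for Itgal (0.997) and Scimp for Itgax (0.985). The 6 points share 2 libraries and their depth, and the r is a description over these points.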

How the data were processed

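The authors sorted CD45lowCD11b+ cells, made 3' libraries on Chromium Chip B or Chip G (which one for each library is not given in the sources used here), and deposited raw UMI counts for every gene and barcode. The submitters' notes name Cell Ranger 6.1.2, STAR, mm10 and Seurat 3.0.1. Groups came from the sample labels.

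From the deposited counts, barcodes were kept from 200 genes and up to 10% mitochondrial UMIs, and classed by marker shares. Counts were summed per class and library and divided by the class total. Intervals are exact at 95%. A count of 0 was compared through a floor of 3 counts. No test was made, since each genotype is 1 library and cells are not replicates. All 10 members are named. Other integrin genes are named from 50 CPM, pathway genes also past 1.5-fold with an interval that leaves out 0, and genes in microglia with an Itgax UMI past 1.5-fold in both libraries. Apoe, Lpl, Spp1, Cd74 and Itga1 were named, and the checks of Itgal, Itga4, Itgax and pathway genes in stricter gates were added, after values were seen. Groups of other cells were set on marker shares after the data were seen. The members, lists and rules were chosen with earlier results of these data known. A gene of the marker lists is not reported here, and the lists were used without it. Doublets were not removed. Alternatives were TMM (edgeR 4.0.16) and DESeq2 1.42.0 scaling, other cell filters and gates, thinning to 1000 UMIs, the mean over cells, the top 5% of UMIs left out and, added after the data were seen, neutrophils with a microglia share under 0.05%. GENCODE positions on mm10 were joined on gene identifiers (32235 found). The interval for ratios was tested on simulated data. Scripts ran in R 4.3.3 and Python 3.11.15 with scipy 1.17.1, numpy 2.4.6, matplotlib 3.10.9 and pandas 2.3.3.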

Additional observations from a re-analysis of the deposited data

Results flagged for a closer look

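The genotype ratio of 2 genes pointed in opposite directions in different cell classes, with counting intervals on opposite sides of 0, and the differences were not tested. For Itgb5, the log2 ratio in microglia (0.14) exceeded that in neutrophils (-2.14) by 2.28 and that in other cells (-2.37) by 2.51. Itgb5 in neutrophils stood at 18.3% and 3.77% of its microglia level, within the counting error of other microglia genes there. The makeup of the other cells differed between the libraries. The Itgb5 ratio was -0.06, -0.39, -0.27, -0.19 and -0.44 with border macrophage, classical monocyte, nonclassical monocyte, T and B cell genes. These intervals include 0. With antigen presentation genes, NK cell genes or no list above its limit it was -1.99, -2.33 and -1.26, with intervals below 0. For Itgal, the log2 ratio in microglia (1.495, from 37 and 29 UMIs) exceeded that in other cells (-0.29) by 1.78, and the value in other cells turned to 0.19 under TMM scaling.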

How the results depend on the processing

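No paired analysis was possible because each genotype has 1 library. Variation between libraries of a genotype was not measured. Depth sets the counting intervals and the shares of cells with a UMI, and thinning moved the counts below. The count of members past 1.5-fold between genotypes in microglia, 2 as reported, was 5 with a microglia share of at least 0.25% and 4 with cells thinned to 1000 UMIs. In neutrophils the count of 7 became 3 when thinned, beside 32.8% lower and 13.7% higher of 4295 genes. The genes that left it were found in few of the 115 thinned Disc1 WT/WT neutrophils. Itgb5 and Itgb1 were found in 4 cells each, Itga6 in 1 and Itga9 in 0. The count became 4 among neutrophils with a microglia share under 0.05%, beside 23.9% and 19.7% of 8187 genes. The count of members higher in neutrophils than in microglia, 2 as reported, was 1 with a microglia share of at least 0.25%. The share of all genes was not counted at that limit. The count of listed genes higher with an Itgax UMI in both libraries, 4 as reported, was 1 with a microglia share of at least 1%. The log2 ratio of Itga6 in neutrophils turned to 0.11 when thinned, and that of Itgb1 to 0.56 in neutrophils with a microglia share under 0.05%. The former rests on 1 thinned Disc1 WT/WT cell with a UMI, and the latter on few UMIs in 82 Disc1 WT/WT cells. In other cells Itgal turned to 0.19 with TMM, 0.22 with DESeq2, 1.05 with a microglia share of at least 1% and 0.0093 as the mean over cells, and Itga4 turned to 0.80 with a microglia share of at least 1%. Itgam over neutrophils in Disc1 LI/LI microglia turned to -0.91 with TMM and -0.99 with DESeq2. The cause was not tested. Over all alternatives, 501 of 682 values other than counts of genes stayed within their counting error (shares of all genes within 1.5 times), 172 moved further and 9 reversed. The 9 do not hold every change of sign. That of Itga4 in microglia to -0.55 with a microglia share of at least 1% is among the 172.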
